A study of Mus musculus with 60 samples.

Results

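The enzymes that build cholesterol and fatty acids, with the genes that regulate them, were followed across 60 samples of mouse skin carcinomas. A list of 31 genes was taken from the pathway, and each gene was read from 1 probe set, the brightest on average of those annotated to that gene alone. Of the 31 genes, 30 could be measured in this way, out of 18194 genes on the array, and Acat2 was not analysed here. All 30 were among the 12791 genes tested, those exceeding the median of their array in 8 or more tumors. The 30 genes comprise 6 enzymes of the mevalonate steps, 11 enzymes from squalene synthesis to cholesterol (called sterol enzymes here), 4 regulators and 9 genes of fatty acid synthesis.

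The tumors had been induced with DMBA, a carcinogen, and TPA, a tumor promoter, on the dorsal skin of FVBBX mice, a backcross of [SPRET/Ei X FVB/N] animals to FVB/N, so that Mus spretus alleles segregate among the animals. Every group shared this treatment and cross. RNA from each sample was hybridized to 1 array, and values are log2 RMA values. Arrays from 1 mouse were averaged to give 55 independent mice, whose number limits the precision. By label, 13 mice had spindle carcinomas, which have lost epithelial morphology, and 35 had squamous cell carcinomas (SCC), 13 of them well, 13 moderately and 9 poorly differentiated, while 7 mice had no histology label. Every spindle mouse was labelled poorly differentiated except spindle 6, labelled moderately. Spindle carcinomas and SCC therefore also differ in grade. The p53 label was mutant in 14 mice and not mutant in 41. Mice with fewer than 2 papillomas at 20 weeks are called resistant (n = 17) and mice with more than 7 sensitive (n = 16). The mice were of both sexes, and a further label gives their origin as F1BSF1, F1BSF2, F1BSF3 or F1BSF4. The age at which tumors were collected is not given in the sources used here.

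Cholesterol is made from acetyl-CoA through mevalonate, isoprenoids and squalene, and fatty acids are made from the same acetyl-CoA by carboxylation, chain building, elongation and desaturation. Both routes are driven by the SREBP transcription factors, encoded by Srebf1 and Srebf2, which are held in the endoplasmic reticulum by Scap and the Insig proteins when sterols are plentiful and released when they are scarce. In skin, keratinocytes make cholesterol and fatty acids for the permeability barrier, and sebocytes and adipocytes make lipid in quantity.

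Promoters of some of the genes that fell are shown because SREBP binds a sterol regulatory element, searched here as TCACNCCAC, next to the CCAAT box bound by NF-Y. Promoter windows of 250 bases before to 50 bases after the start were taken from RefSeq (GRCm38.p6), which held 24 of the 31 genes. In the sequences below, capitals mark either motif on either strand, and the pair of motifs overlapped at 0 places. Hmgcs1 (chr13:119690101-119690400, plus strand) is the only gene of the 24 with TCACNCCAC in its window, 137 bases before the start, and Idi1 (chr13:8885356-8885655, plus strand) and Nsdhl (chrX:72918271-72918570, plus strand) are shown as the mevalonate and sterol enzymes of smallest p between spindle carcinomas and SCC.
Hmgcs1: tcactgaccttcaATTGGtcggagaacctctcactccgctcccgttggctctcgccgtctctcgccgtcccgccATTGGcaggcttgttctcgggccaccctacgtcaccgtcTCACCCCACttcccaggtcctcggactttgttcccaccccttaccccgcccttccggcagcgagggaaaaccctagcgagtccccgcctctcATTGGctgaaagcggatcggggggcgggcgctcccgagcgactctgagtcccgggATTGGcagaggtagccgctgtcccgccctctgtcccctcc
Idi1: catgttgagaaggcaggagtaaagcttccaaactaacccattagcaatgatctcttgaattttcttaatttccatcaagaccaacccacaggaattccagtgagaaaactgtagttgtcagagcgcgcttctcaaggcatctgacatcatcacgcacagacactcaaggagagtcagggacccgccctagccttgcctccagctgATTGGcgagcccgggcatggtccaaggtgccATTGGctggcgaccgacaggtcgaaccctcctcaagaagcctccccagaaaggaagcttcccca
Nsdhl: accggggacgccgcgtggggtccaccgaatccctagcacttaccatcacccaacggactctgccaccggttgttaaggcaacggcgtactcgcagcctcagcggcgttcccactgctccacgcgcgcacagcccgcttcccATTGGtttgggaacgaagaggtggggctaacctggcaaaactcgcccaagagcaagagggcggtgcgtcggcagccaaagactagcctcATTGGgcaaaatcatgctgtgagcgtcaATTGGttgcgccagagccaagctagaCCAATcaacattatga
Of the 14 cholesterol enzymes with a window, 1 (7.14%) held TCACNCCAC, against 1.44% of 27025 genes with a promoter. CCAAT was found in 14 of these 14 enzymes (100%) and in 5 of 7 fatty acid genes (71.4%), against 41.1% of the 27025 genes. An excess was not particular to CCAAT. The GC box GGGCGG was in 13 of the 14 enzymes (92.9%) against 38.2% of the 27025 genes. The E-box CACGTG was in 3 of the 14 (21.4%) against 8.09%. The 14 include Dhcr7 and Hsd17b7, which were not called between spindle carcinomas and SCC. Hmgcs1 and Nsdhl held 4 CCAAT boxes each and Idi1 held 2. A match describes the letters in the window, not a bound site.

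Between spindle carcinomas and SCC, most enzymes of cholesterol synthesis were lower in spindle carcinomas. Of the 30 genes, 19 fell and 1 rose in spindle carcinomas (limma, Benjamini-Hochberg adjusted p under 0.05), against 26.5% of all 12791 genes called, 11.0% lower and 15.5% higher; at an unadjusted p under 0.05, 2 were higher and 20 lower, against 37.7% of all genes. The median difference of the 30 was -0.66 on the log2 scale, against 0.02 over all genes tested, and 27 of the 30 differences were negative. All 6 mevalonate enzymes and 9 of the 11 sterol enzymes fell, whereas among the regulators only Stard4 did, and fatty acid synthesis moved both ways, with 3 genes lower, 1 higher and 5 not called. The mean log2 level of the 17 cholesterol enzymes averaged 7.74 ± 0.59 in spindle carcinomas (SD, n = 13) and 8.61 ± 0.57 in SCC (SD, n = 35), with ranges of 7.00 to 8.77 and 7.40 to 9.55 that overlapped.

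**Figure D1:**
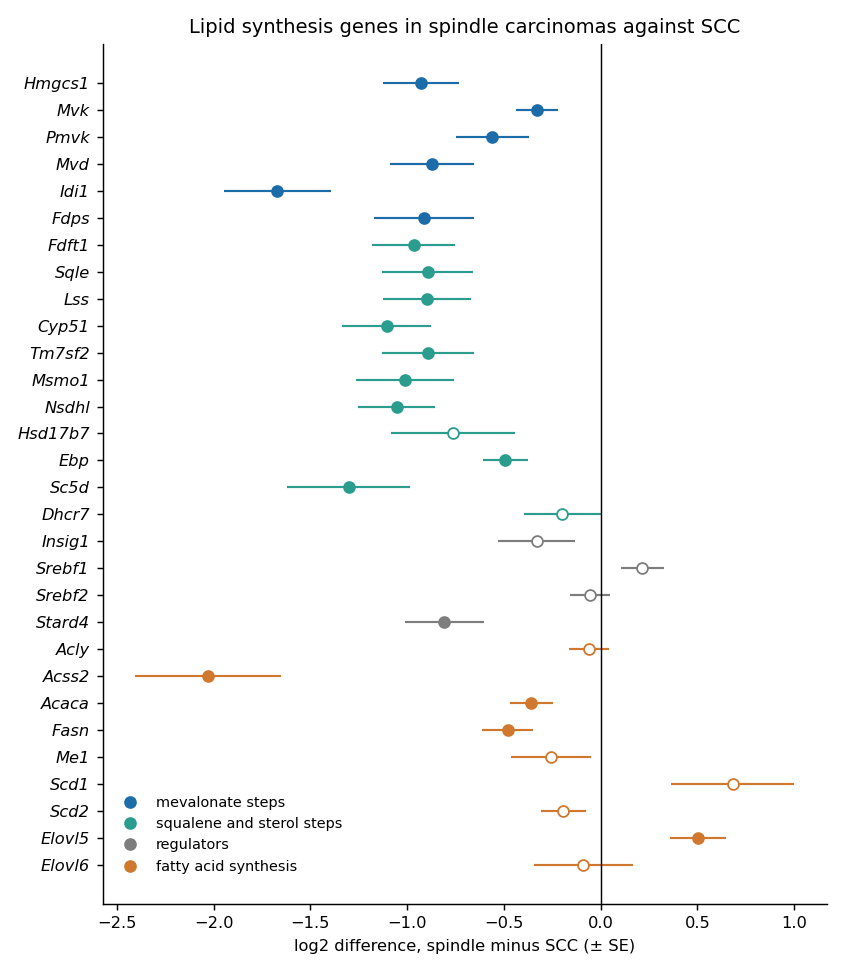
Log2 difference of spindle carcinomas minus SCC for each of the 30 genes (limma, 13 against 35 mice), with bars of 1 SE. Filled points passed an adjusted p of 0.05, and colors give the branch of the pathway; the blue and green points of the cholesterol enzymes all lie left of 0, and the orange points of fatty acid synthesis lie on both sides.

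Among the mevalonate enzymes, Idi1, which converts isopentenyl diphosphate to its reactive isomer, had the largest difference. Idi1 levels in spindle carcinomas ran from a lowest of 7.00 through a median of 8.14 to a highest of 10.36, against 7.95, 10.06 and 11.21 in SCC. The groups overlapped, but 6 of the 13 spindle mice lay below the lowest SCC mouse and 11 below the SCC median. The difference was -1.67 (SE 0.28, adjusted p = 0.000169), a 3.18-fold lower mean. Hmgcs1, the synthase that makes HMG-CoA, ran 8.76, 9.80 and 11.00 in spindle carcinomas and 9.34, 10.83 and 11.62 in SCC, for a difference of -0.93 (SE 0.20, adjusted p = 0.000687). Fdps, which makes farnesyl diphosphate, ran 7.41, 8.36 and 9.61 in spindle carcinomas and 7.13, 9.42 and 10.94 in SCC, for a difference of -0.91 (SE 0.26, adjusted p = 0.00708). Both genes overlapped widely between the groups, with 10 spindle mice below the SCC median for Hmgcs1 and 12 for Fdps. Mvd, which decarboxylates mevalonate diphosphate (-0.87), and the mevalonate kinases Pmvk (-0.56) and Mvk (-0.33) also fell.

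Of the sterol enzymes, Nsdhl, a sterol dehydrogenase, had the fewest spindle mice above the SCC median, which was 0. Spindle carcinomas ran 6.82, 7.40 and 8.41 (lowest, median and highest) and SCC 7.32, 8.48 and 9.87. Thus all 13 spindle mice lay below the SCC median, and 20 of the 35 SCC mice lay above every spindle mouse. The difference was -1.05 (SE 0.20, adjusted p = 0.000292). Sc5d, the desaturase that sets the ring double bond late in the pathway, had 5.94, 7.36 and 10.04 in spindle carcinomas and 6.55, 9.26 and 10.46 in SCC, a difference of -1.30 (SE 0.32, adjusted p = 0.00217). Cyp51, the lanosterol demethylase, had 6.62, 7.60 and 9.14 in spindle carcinomas and 7.41, 8.97 and 9.76 in SCC, a difference of -1.10 (SE 0.23, adjusted p = 0.000605). For each of Sc5d and Cyp51, 12 of the 13 spindle mice lay below the SCC median and 1 lay above it.

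Msmo1, the methylsterol oxidase, ran 8.20, 8.76 and 10.58 in spindle carcinomas against 7.70, 10.38 and 11.27 in SCC (-1.01, SE 0.25, adjusted p = 0.00265). Fdft1, squalene synthase, ran 7.07, 8.26 and 9.56 in spindle carcinomas against 7.81, 9.26 and 10.36 in SCC (-0.97, SE 0.21, adjusted p = 0.000922). Lowest, median and highest values thus overlapped for both, while 11 and 12 of the 13 spindle mice stayed below the SCC medians. Lss, lanosterol synthase, had 5.55, 6.68 and 8.24 in spindle carcinomas against 6.30, 7.70 and 8.96 in SCC (-0.90, SE 0.23, adjusted p = 0.00288). Sqle, squalene epoxidase and a flux-controlling step, had 7.41, 8.67 and 10.03 in spindle carcinomas against 8.12, 9.56 and 10.75 in SCC (-0.89, SE 0.23, adjusted p = 0.00398). Tm7sf2, a sterol reductase, had 5.03, 5.77 and 6.76 in spindle carcinomas against 5.37, 6.54 and 8.06 in SCC (-0.89, SE 0.24, adjusted p = 0.00464). The spindle values of these 3 enzymes overlapped SCC as well, with 6 spindle mice under the lowest SCC mouse for Sqle. Ebp, the sterol isomerase, fell less (-0.49). Hsd17b7, a keto-reductase of the same complex of steps, had a difference of -0.76 that did not pass (adjusted p = 0.0722), and its SCC values were the widest of the sterol enzymes, with an SD of 1.12 in SCC. Dhcr7, the last reductase, had -0.20 (SE 0.20, adjusted p = 0.493).

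**Figure D2:**
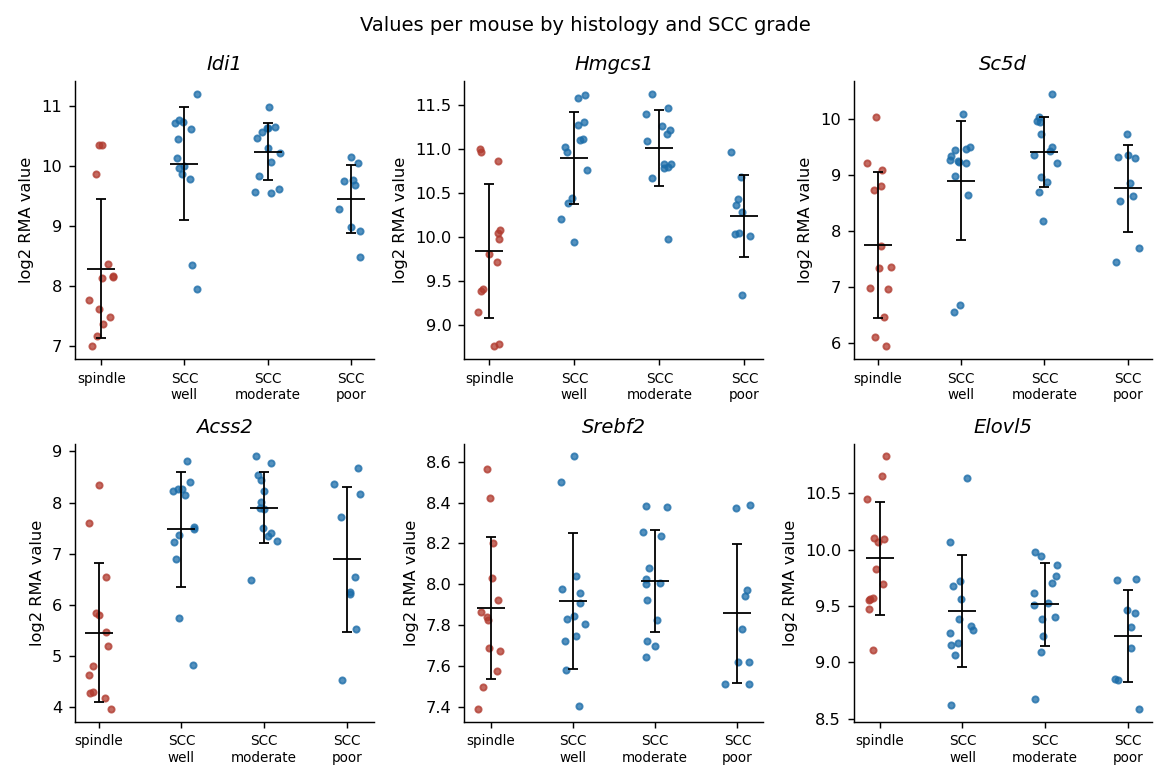
Log2 RMA values per mouse of Idi1, Hmgcs1, Sc5d, Acss2, Srebf2 and Elovl5 in spindle carcinomas and in well, moderately and poorly differentiated SCC. Each point is a mouse and the bars give mean ± SD; the spindle points of Idi1 reach down to 7.00, Srebf2 lies at similar levels in all 4 classes, and Elovl5 has its highest mean in spindle carcinomas.

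Of the 4 regulators, 1 fell and 3 were not called. Srebf2, the SREBP that chiefly drives cholesterol genes, had a mean level of 7.88 ± 0.35 in spindle carcinomas and 7.94 ± 0.30 in SCC (SD, n = 13 and 35), a difference of -0.05 (SE 0.10, adjusted p = 0.743). Srebf1, whose products favor fatty acid genes, differed by 0.22 (SE 0.11, adjusted p = 0.137). Insig1, a sterol-sensing anchor that is itself a SREBP target, differed by -0.33 (SE 0.20, adjusted p = 0.227). Stard4, a cytosolic sterol carrier, fell by 0.81 (SE 0.20, adjusted p = 0.00288). The array reads RNA, so the processing of the SREBP proteins was not measured. Among other genes of sterol handling and SREBP control, 2 fell, 1 rose and 12 were not called of 15 tested, fewer than the 26.5% of all genes called: Fabp5, a fatty acid carrier of the epidermis (-1.05), and Aacs, which activates acetoacetate (-0.42), fell, and Npc2, a lysosomal sterol carrier, rose (0.27). Scap had -0.13 (adjusted p = 0.341) and Insig2 -0.08 (adjusted p = 0.573). In the list of sterol efflux and LXR targets 3 of 11 rose and 0 fell (1 was lower at an unadjusted p under 0.05), against 15.5% of all genes higher and 11.0% lower. The 3 were Abca1, which exports cholesterol (0.73, limma adjusted p = 0.00808), Mylip, which marks the LDL receptor for degradation (0.69, adjusted p = 0.0124), and Nceh1, a cholesterol ester hydrolase (0.45, adjusted p = 0.0271).

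In fatty acid synthesis, Acss2, which makes acetyl-CoA from acetate, had the largest difference of all 30 genes. Acss2 ran 3.96, 5.19 and 8.35 in spindle carcinomas (lowest, median and highest) and 4.53, 7.73 and 8.90 in SCC. The ranges overlapped across nearly their whole width, yet 12 of the 13 spindle mice lay below the SCC median and 8 SCC mice lay above every spindle mouse. The difference was -2.03 (SE 0.38, limma adjusted p = 0.000275), a 4.08-fold lower mean. Acss2 exceeded the array median on 54 of 60 arrays, while the other members did so on all 60. Arrays at or under it included spindle 8 (3.87), spindle 7 (3.96) and spindle 10 (4.30). The size of the difference therefore rests in part on values near background. Fasn, fatty acid synthase (-0.48), and Acaca, the acetyl-CoA carboxylase (-0.36), fell by less. Elovl5, which elongates polyunsaturated fatty acids, rose by 0.50 (SE 0.15, adjusted p = 0.00825), and 12 of 13 spindle mice were above the SCC median. Scd1, a stearoyl-CoA desaturase, had 0.68 (SE 0.32, adjusted p = 0.108). Acly, which makes acetyl-CoA from citrate (-0.06), Scd2, another desaturase (-0.19), Me1, malic enzyme (-0.26), and Elovl6, an elongase of saturated chains (-0.09), were not called.

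Of 28 further genes of fatty acid and lipid synthesis tested, 9 fell, 1 rose and 18 were not called, against 11.0% of all genes lower and 15.5% higher. The 5 largest differences among those called were Dgat2, which makes triglyceride (-1.36), Fads3, of the fatty acid desaturase family (-0.78), Pnpla3, a lipid hydrolase (-0.66), Mid1ip1, an activator of acetyl-CoA carboxylase (-0.61), and Elovl1, an elongase of very long chains (-0.50). Of 16 fatty acid oxidation genes 2 rose, Cpt1a, the entry step into mitochondria (0.63), and Decr1, a reductase for unsaturated chains (0.62), and 0 fell (2 were lower at an unadjusted p under 0.05), against 15.5% of all genes higher and 11.0% lower, so neither count of this list exceeds the background.

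Keratinocyte marker levels moved with these differences. All 10 keratinocyte markers, among them Krt5 (-2.45), Krt14 (-2.10), Trp63 (-2.71) and Cdh1 (-1.69), fell in spindle carcinomas, and their mean ran from 5.57 to 11.61 (median 7.98) in spindle carcinomas and from 4.51 to 11.80 (median 11.32) in SCC. Of 7 differentiated keratinocyte markers only 2 fell and 5 were not called, and 2 of the 7 differences were positive. In bulk tumor RNA, fewer cells of a type and less RNA per cell cannot be told apart. Within the 13 spindle mice, Acss2 followed the keratinocyte mean with Pearson's r = 0.87 (permutation p = 5e-05, adjusted 0.0015) and Spearman's rho = 0.92 (permutation p = 5e-05, adjusted 0.0015), and r was 0.91 without the 2 mice farthest from the median. Idi1 gave r = 0.82 (permutation p = 0.00048, adjusted 0.0024) and rho = 0.76 (permutation p = 0.00366, adjusted 0.0117) in spindle mice, with r = 0.70 without those 2. Over the 30 genes, Pearson's r passed adjustment in the positive direction for 19 within spindle mice (30 relations) and for 15 within SCC mice (30 relations). By Spearman's rho 14 passed in spindle mice, Mvd, Lss, Nsdhl, Hsd17b7 and Acly being lost, and 20 passed in SCC mice. For comparison, 9.98% of all 12791 genes reached the smallest of the 19 passing r values (0.64) in spindle mice, and 10.6% the smallest of the 15 (0.40) in SCC mice. Negative relations passed by Pearson's r for Elovl5 in spindle mice and for Srebf1, Scd1 and Elovl5 in SCC mice, and none of these passed by rho. That of Elovl5 in spindle mice was r = -0.60 (permutation p adjusted 0.0469) and rho = -0.57 (adjusted 0.079), with r = -0.43 without the 2 mice farthest from the median.

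Marker levels and histology labels did not always go together. Of the spindle mice, 4 had keratinocyte means from 10.75 to 11.61, inside the main range of SCC. Among these 4, Idi1 was 10.36 in spindle 1, 10.35 in spindle 6 and 9.88 in spindle 5, but 8.15 in spindle 2, which had the mean of 10.75. For Idi1, 3 of the 4 were thus near the SCC median of 10.06 and 1 was near the spindle median of 8.14. Other genes differed from this. Nsdhl was 8.34 in spindle 1, 8.41 in spindle 6, 8.18 in spindle 5 and 7.40 in spindle 2, all under the SCC median. In spindle 5, Acss2 (5.79) and Cyp51 (7.93) were nearer the spindle median than the SCC median. The well differentiated tumor SCC 24 had a keratinocyte mean of 4.51, an adipocyte mean of 8.95 and an Idi1 level of 7.95, the lowest of any SCC mouse. With the keratinocyte mean as a covariate, chosen after the data were seen, 0 of the 30 genes and 0 of all genes were called between spindle carcinomas and SCC (9 of the 30 and 1267 of all at an unadjusted p under 0.05), the median of the 30 was -0.24, Idi1 had -0.77 (limma, adjusted p = 0.248) and Acss2 -0.75 (adjusted p = 0.351). Since histology and the marker mean move together, their parts cannot be told apart. Without the 12 arrays whose Xist and Y-linked levels went against or straddled the labelled sex, SCC 24 among them, 20 of the 30 were called.

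**Figure D3:**
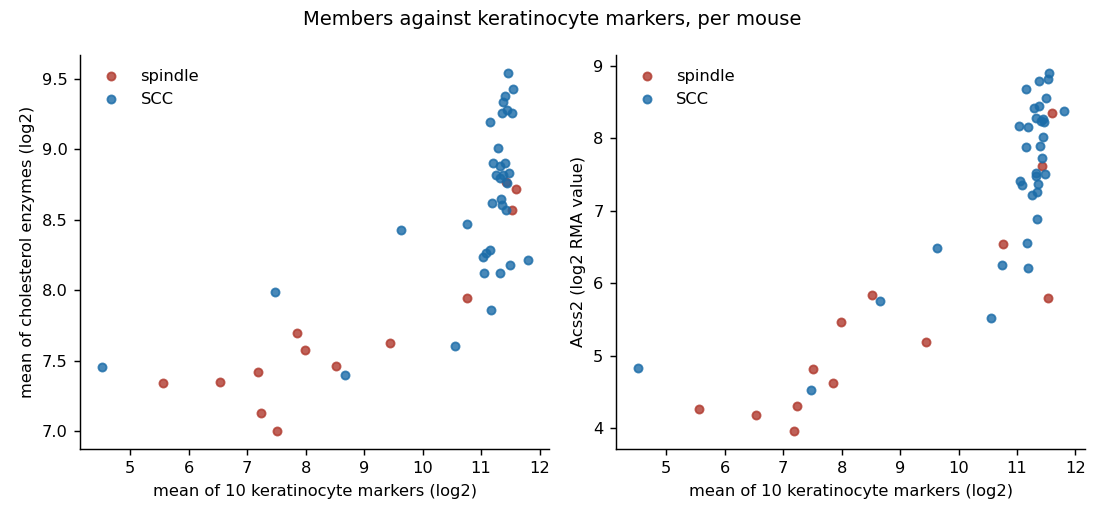
Mean of the 17 cholesterol enzymes (left) and Acss2 (right) against the mean of 10 keratinocyte markers, all in log2 RMA units, with each mouse as a point (13 spindle, 35 SCC). Spindle and SCC mice with low keratinocyte means both lie low on the vertical axes, and the 4 spindle mice with means of 10.75 to 11.61 lie within the vertical range of the SCC mice.

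Markers of other lipid-making cells were set beside the result. Of 6 adipocyte markers tested, 3 fell in spindle carcinomas, Fabp4 (-1.57), Cidea (-1.06) and Lipe (-0.85), and the adipocyte mean ran from 5.99 to 7.88 in spindle carcinomas and from 6.36 to 10.23 in SCC. Within the 13 spindle mice, r with the adipocyte mean was positive for 28 of the 30 genes, with a median of 0.59. After adjustment 10 passed by Pearson's r and 0 by Spearman's rho. Within the 35 SCC mice, r was positive for 11 of the 30 (median -0.04), with 1 passing by Pearson's r and 0 by rho. With the adipocyte mean as a covariate 18 of the 30 genes were called, 16 lower and 2 higher. Of the 3 that no longer passed, Pmvk had -0.57 (limma, adjusted p = 0.0545) against -0.56 without the covariate, Acaca -0.32 (adjusted p = 0.0671) against -0.36, and Fasn -0.31 (adjusted p = 0.115) against -0.48. Scd1 passed with 1.47 (adjusted p = 0.00106), against 0.68 without it. Of 7 sebocyte markers, 1 fell, Acsbg1 (-1.02), and the sebocyte mean ran from 5.61 to 8.04 in spindle carcinomas and from 5.28 to 8.94 in SCC. The fibroblast list had 2 of 9 higher and 1 lower, and the macrophage list 2 of 8 higher. For all these marker lists the background is 15.5% of all genes higher and 11.0% lower. The part of the fibroblast and macrophage markers in the result was not tested.

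Grade within SCC did not separate the genes at the threshold. Poorly minus well differentiated SCC gave 0 called among the 30 and 0 (0%) among all genes (limma), with 7 of the 30 lower at an unadjusted p under 0.05, against 5.37% of all genes in either direction. All 30 differences were negative, with a median of -0.47, against 0.01 over all genes. Many of the 30 genes are correlated with each other, so in every contrast their signs are not independent. The share of negative differences over all genes was not computed. Hmgcs1 levels ran 9.34, 10.28 and 10.97 (lowest, median and highest) in poorly and 9.94, 11.01 and 11.61 in well differentiated SCC. All 9 poor mice lay under the well differentiated median (-0.66, SE 0.20, unadjusted p = 0.00235, adjusted p = 0.889 in limma). Mvd (-0.78), Pmvk (-0.67) and Stard4 (-0.58) were next by p. For Mvd, levels ran 5.36, 6.07 and 6.84 in poorly and 5.56, 7.16 and 7.62 in well differentiated SCC, with 9 of 9 poor mice under that median. Differentiated keratinocyte markers moved the same way, with 6 of 7 negative, a median of -1.45 and 3 lower at an unadjusted p under 0.05. The part of these differentiated markers in the result was not tested. The 10 keratinocyte markers went mostly the other way, with 7 positive, 3 negative and a median of 0.24.

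Poorly minus moderately differentiated SCC had 14 of the 30 lower at an unadjusted p under 0.05, against 8.51% of all genes, with 0 called among the 30 and 0 (0%) among all genes. Here 29 of the 30 differences were negative, with a median of -0.49, against 0.02 over all genes. These comparisons share the poorly differentiated mice, so they are not independent. Hmgcs1 ran 9.97, 11.09 and 11.62 in moderately differentiated SCC and differed by -0.77 (SE 0.20, unadjusted p = 0.000545, adjusted p = 0.575 in limma), with 9 of 9 poor mice under that median. Stard4 (-0.72), Scd2 (-0.45) and Sqle (-0.76) followed by p. Sqle ran 8.40, 9.13 and 9.86 in poorly and 8.66, 9.87 and 10.75 in moderately differentiated SCC, and all 9 poor mice were under the moderate median. When the 3 tumors whose Gapdh control showed the strongest 3′ bias were left out, the count of 14 was 8 and that of 7, from poorly minus well differentiated SCC, was 4. Over all genes the corresponding counts were 889 and 593, against 1089 and 687 with every array kept. The p53 label as a covariate gave 13 and 4 (1068 and 711 of all genes). The origin of the mouse as a covariate gave 10 and 6 (883 and 862 of all genes). The mean of the 10 keratinocyte markers as a covariate, chosen after the data were seen, gave 15 and 16 (926 and 1085 of all genes). The differentiated keratinocyte markers had 7 of 7 negative in poorly minus moderately differentiated SCC, with a median of -0.87 and 0 past an unadjusted p of 0.05. Of the 10 keratinocyte markers 9 were negative and 1 positive, with a median of -0.31. By label 5 of the 9 poor SCC mice were p53 mutant, against 2 moderate and 1 well differentiated.

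Moderately minus well differentiated SCC had 0 called among the 30 and 0 (0%) among all genes, and 0 of the 30 at an unadjusted p under 0.05, against 2.49% of all genes. The moderate minus well differences were positive for 17 and negative for 13, with a median of 0.05, against -0.02 over all genes. The smallest p belonged to Sc5d (0.52, SE 0.32, limma adjusted p = 1.00), followed by Hsd17b7 (-0.47), Acss2 (0.42) and Sqle (0.25). The mean of the 17 cholesterol enzymes averaged 8.72 ± 0.67 in well (SD, n = 13), 8.79 ± 0.45 in moderately (SD, n = 13) and 8.20 ± 0.34 in poorly differentiated SCC (SD, n = 9).

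Spindle carcinomas set against the 9 poorly differentiated SCC mice alone gave 0 genes called of the 30 and 0 of all genes, with 8 of the 30 (7 lower, 1 higher) and 2293 of all genes at an unadjusted p under 0.05. Grade is closest to matched in this comparison, since every spindle mouse but spindle 6 was labelled poorly differentiated. Idi1 had -1.16 (limma, adjusted p = 0.174), Sc5d -1.01 (adjusted p = 0.253), Acss2 -1.43 (adjusted p = 0.206) and Hmgcs1 -0.40 (adjusted p = 0.452). Pmvk (-0.09) and Mvk (-0.10) were close to level.

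The p53 label gave 0 of the 30 genes called, against 36 genes or 0.281% of all, 0.219% higher and 0.0625% lower (limma). At an unadjusted p under 0.05, 1 of the 30 was higher and 3 lower, against 11.2% of all genes. The p53 differences were negative for 26 of the 30, with a median of -0.15, against 0.01 over all genes. The 10 keratinocyte markers went the other way, with 10 positive and a median of 0.29. Dhcr7 ran 7.21, 8.72 and 9.52 in p53 mutant tumors (lowest, median and highest) and 6.93, 8.22 and 9.30 in tumors not labelled mutant. Of the 14 p53 mutant mice 10 lay above the other group's median, a difference of 0.48 (SE 0.18, unadjusted p = 0.00918, adjusted p = 0.248 in limma). Scd2 (-0.23), Stard4 (-0.44) and Acly (-0.20) had the next smallest p. The p53 effect in spindle carcinomas minus that in SCC gave 0 of the 30 and 0 (0%) of all genes called, with 0 of the 30 at an unadjusted p under 0.05 against 6.23% of all genes. This effect was positive for 28 of the 30, with a median of 0.35, against -0.01 over all genes, and it rests on 4 p53 mutant spindle mice. Its smallest p values belonged to Acss2 (1.53, SE 0.82, limma adjusted p = 0.794), Tm7sf2 (0.93), Ebp (0.42) and Msmo1 (0.89).

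Resistant minus sensitive mice gave 0 of the 30 genes and 0 (0%) of all genes called (limma), with 7 of the 30 lower at an unadjusted p under 0.05, against 8.25% of all genes. The differences were negative for 26 of the 30, with a median of -0.22, against 0.004 over all genes. Hmgcs1 ran 8.78, 10.44 and 11.24 in tumors of resistant mice (lowest, median and highest) and 9.80, 10.98 and 11.58 in those of sensitive mice. The ranges overlapped, and 15 of 17 resistant mice were under the sensitive median (-0.54, SE 0.19, unadjusted p = 0.00775, adjusted p = 0.516 in limma). Cyp51 (-0.60), Elovl6 (-0.63) and Lss (-0.51) followed, with 15, 13 and 15 of the 17 resistant mice under the sensitive medians. The classes differed in other labels: 8 of 17 resistant and 2 of 16 sensitive mice were p53 mutant. With only the mice not labelled p53 mutant, 12 of the 30 were lower at an unadjusted p under 0.05, against 1155 of 12791 genes in either direction. All 7 differentiated keratinocyte markers were also lower in resistant mice (median -1.03, 2 at an unadjusted p under 0.05), and their part in the result was not tested. Of the 10 keratinocyte markers 9 were lower and 1 higher, with a median of -0.32.

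Across the 35 SCC mice the levels of the cholesterol enzymes were correlated, which is given as a description. The 136 pairs of the 17 enzymes had a median r of 0.70, and 136 were positive, against a median of 0.00 over all pairs of genes kept by the filter. Pairs of fatty acid genes had a median r of 0.20 with 30 of 36 positive, and pairs of a cholesterol enzyme with a fatty acid gene 0.30 with 122 of 153 positive. The pairs share libraries and the variation in keratinocyte marker levels described above. Against the 17 enzymes, Acss2 had a median r of 0.53, Scd2 of 0.52 and Fasn of 0.44, each positive with 17 of 17, whereas Scd1 (median -0.20) and Elovl5 (median -0.21) were positive with 3 of 17 each and had r = 0.65 with each other. Of the regulators, Stard4 had a median r of 0.70, Insig1 of 0.34, Srebf2 of 0.28 and Srebf1 of -0.22. Insig1 was compared with the other 29 genes, of which 6 passed adjustment by Pearson's r and 9 by Spearman's rho, Cyp51 leading with r = 0.57. The share of all genes that reach such r with Insig1 was not computed, so these counts have no background.

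**Figure D4:**
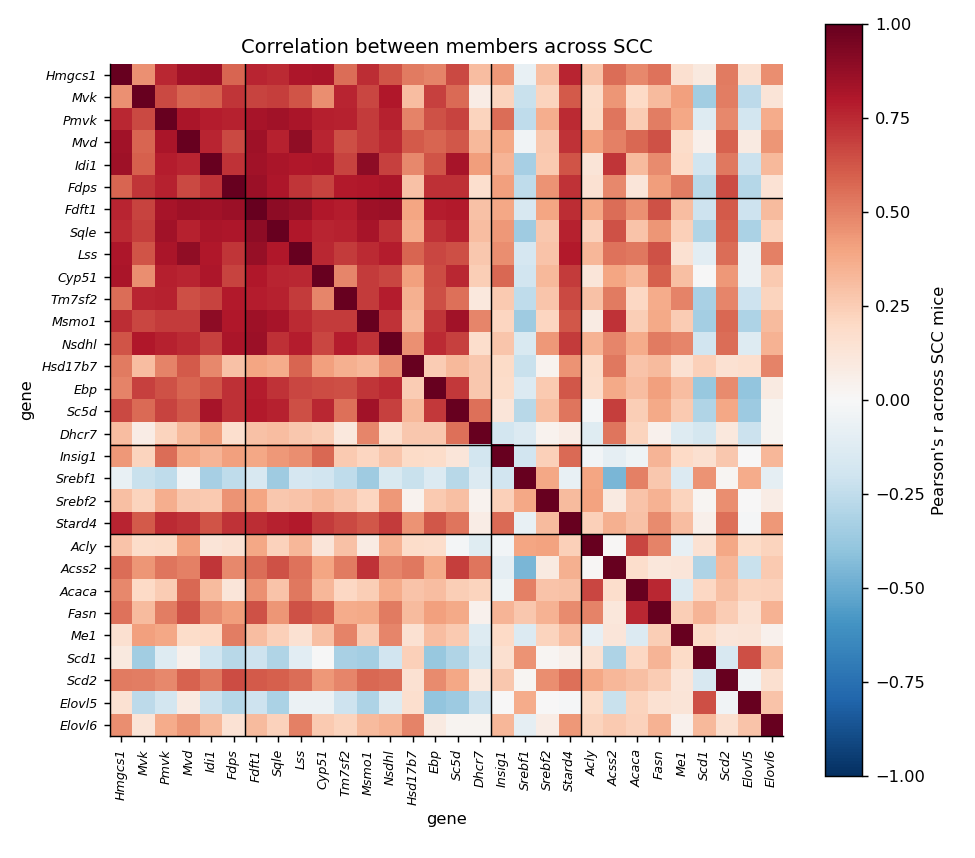
Pearson's r between each pair of the 30 genes across 35 SCC mice, from blue (-1) to red (1), with black lines between the mevalonate enzymes, sterol enzymes, regulators and fatty acid genes. The cholesterol enzymes form a red block with a median r of 0.70, within which the row of Dhcr7 is pale and that of Hsd17b7 paler than most.

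Dhcr7 stood farthest from this block, and Hsd17b7 was also weakly tied to it, with r from 0.25 (Ebp) to 0.61 (Mvd). The r of Dhcr7 with the other 16 cholesterol enzymes had a median of 0.27, and 2 of the 16 passed adjustment by Pearson's r, Sc5d (0.55) and Msmo1 (0.49), but 0 by Spearman's rho (0.27 and 0.29, permutation p adjusted 0.518 for both). Dhcr7 lies on distal chromosome 7, where 41 of the genes kept by the filter lie within 2 Mb of it, and among these 13 correlated positively and 1 negatively with it by Pearson's r after adjustment, and 12 positively by rho. Of the 41, 13 thus reached the smallest of these r values, 0.42, against 5.90% of 12790 genes. Osbpl5, an oxysterol-binding family member, gave r = 0.79 (permutation p = 1e-05, the smallest that 100000 permutations can give, adjusted 8.2e-05) and rho = 0.76 (adjusted 0.000205), with r = 0.79 without the 2 farthest mice. Cttn, encoding cortactin, gave r = 0.75 and LTO1 r = 0.74, and Ccnd1, encoding cyclin D1, gave r = 0.37 (adjusted 0.0775). Ranked by r among 12790 genes, Osbpl5 was 2, Cttn 5 and LTO1 6, and 6 of the 20 genes most like Dhcr7 lie on its chromosome, which holds 1002 of the 12790, and 3 of them lie within 2 Mb, where 41 of the 12790 lie. Sc5d was the cholesterol enzyme highest in that order, at 213. Dhcr7 also followed the keratinocyte mean in SCC (r = 0.56, permutation p adjusted 0.00042; rho = 0.46, adjusted 0.0141).

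Of the 55 mice, 5 had a pair of arrays, and these pairs differed in Acss2 by 0.01 to 3.94 and in Idi1 by 0.28 to 2.01. The sample titles of SCC 3 and SCC 4 share a tumor number, as do those of no histology 6 and no histology 7. Each of these pairs may therefore come from 1 tumor. Acss2 was 3.87 in spindle 8 and 7.81 in spindle 9, with keratinocyte means of 5.36 and 11.68. Both of these arrays are among the 12 whose Xist and Y-linked levels went against or straddled the labelled sex, and spindle 9 is among the 3 of strongest Gapdh 3′ bias, so whether both came from 1 mouse is in doubt. SCC 22 had an Acss2 level of 4.52 and SCC 23 of 8.44, with keratinocyte means of 7.84 and 11.42. The samples labelled no histology 6 and no histology 7 had Acss2 of 4.00 and 7.15 and keratinocyte means of 7.85 and 11.35. Acss2 in spindle 8 and in no histology 6 lay at or under the array median, near background. In the pairs with closer keratinocyte means Acss2 was closer as well, at 8.61 and 8.20 in SCC 7 and SCC 8 (means of 11.26 and 11.33) and at 5.75 in each of SCC 3 and SCC 4 (means of 8.15 and 9.18). The keratinocyte mean thus moved with each large difference in Acss2, and its part was not tested. SCC 22 belongs to a pair of arrays from different mice with nearly identical values (r above 0.98), so its label is in doubt. There were 4 such arrays, and without them 20 of the 30 genes were called between spindle carcinomas and SCC.

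The choice of probe set mattered for few genes. The 30 genes had 69 probe sets, and of the 39 not used, 35 gave the same sign between spindle carcinomas and SCC. Acaca, Acly and Scd2 each had a probe set above the filter with the other sign. The mean of all probe sets of a gene kept 18 of the 20 calls, losing Acaca and Lss and adding Hsd17b7.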

How the data were processed

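Expression was measured in 60 carcinoma samples of 55 mice on Affymetrix arrays of the mouse genome. The authors deposited log2 values from RMA, in which probes are background-corrected, quantile-normalized over the 60 arrays and combined per probe set. A shift shared by most genes would thereby be removed. The RMA version and genome build are not given in the sources used here. Of 45101 probe sets, 34958 carried a single symbol. Symbols were updated through RefSeq (GRCm38.p6). Mus spretus alleles may hybridize differently, which was not tested.

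Groups follow the labels. Each contrast was fitted with limma 3.58.1 (lmFit and eBayes, R 4.3.3) over 12791 genes in place of the SAM statistic that the methods name, with Benjamini-Hochberg adjustment and a threshold of 0.05, and the method was tested on simulated data. The SCC grades shared 1 model. Correlations used 100000 permutations with adjustment within each family, and were chosen after the data were seen, as were the keratinocyte covariate and leaving out each p53 mutant spindle mouse. Python 3.11.15, scipy 1.17.1, pandas 2.3.3 and matplotlib 3.10.9 were used.

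The genes and lists were chosen with earlier results of these data known. Named genes are those called, with the 12 largest differences in full, or the 4 of smallest p where none was called, and up to 5 called genes of each other list with Scap and Insig2. Other alternatives were the filter, the probe set rule, scaling, eBayes options, mouse as a random block, covariates for origin, p53, histology and adipocyte markers, subsets of mice, and removal of arrays with discordant sex markers, nearly identical values or RNA degradation.

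Array medians lay between 4.43 and 4.56. Xist and Y-linked levels went against or straddled the labelled sex on 12 arrays, and 4 arrays from different mice were nearly identical to another.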

Additional observations from a re-analysis of the deposited data

Results flagged for a closer look

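Among 120 sets of values (30 genes in poorly differentiated SCC, p53 mutant SCC, and p53 mutant and not mutant spindle carcinomas), 4 held a mouse far from the others of its group, at a gap that chance gives in about 1 in 20 sets. Ebp was 9.52 in the poorly differentiated SCC 37, against 9.14 in the nearest of the other 8 mice. In the 9 spindle mice not labelled p53 mutant, Mvk was 7.30 in spindle 5, against 6.54 in the nearest mouse. Insig1 was 7.83 in spindle 7 of the same group, against 6.91 in the nearest. Acss2 was 8.35 in spindle 1, against 5.79 in the nearest, and this mouse also had the highest keratinocyte marker mean of the spindle mice, 11.61.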

How the results depend on the processing

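The count of 20 genes called between spindle carcinomas and SCC lay between 18 and 21 under the other alternatives and was 0 under a pair of them: against poorly differentiated SCC only, which leaves 9 SCC mice, and with the mean of keratinocyte markers as a covariate. The remaining contrasts gave 0 called genes of the 30 under every alternative, and leaving out each p53 mutant spindle mouse in turn gave 0 each time for the p53 effect in spindle carcinomas minus that in SCC. The unadjusted counts moved more, and those over all genes moved as well. For resistant minus sensitive mice, the count was 7 of the 30, with 1055 of all genes. It became 3 with a slope on papilloma number (817 of all genes) and 3 with origin as a covariate (902 of all). It was 11 without the 12 arrays of discordant sex markers (1740 of all) and 12 with the mice not labelled p53 mutant (1155 of all). Between spindle carcinomas and SCC no called gene changed sign under the alternatives run, but uncalled ones did: against poorly differentiated SCC only Acly (0.06), Elovl6 (0.20), Me1 (0.02), Scd2 (0.09) and Srebf2 (0.03) were positive, as were Dhcr7 (0.26), Elovl6 (0.19) and Srebf2 (0.02) with the keratinocyte covariate and Elovl6 (0.05) with the adipocyte covariate. Over all genes, the p53 contrast called 36 genes, 0 within spindle mice only and 4 to 40 under the other alternatives. No paired analysis was possible because a replicate number only names a sample and no mouse carried tumors of both groups compared. The keratinocyte and leave-out alternatives were chosen after the data were seen.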
